A study of Mus musculus with 66 samples.

Results

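Formalin fixation of BC57 cells was examined in RNA-seq libraries made with the Ovation SoLo kit from 250 pg of total RNA, in 3 FFPE libraries set against 3 FF libraries. These 6 of the 66 libraries of the series were taken by their titles, and every gene of the deposited count table entered. BC57 is a mouse bladder cancer cell line that was cultured with bovine serum and harvested as a cell pellet. The pellet was split between both preservations. FFPE (formalin-fixed, paraffin-embedded) cells were held in buffered formalin for 24 hours and set in wax, and their RNA was taken from dewaxed slices with the RNeasy FFPE kit. FF (fresh frozen) cells were frozen in liquid nitrogen, and their RNA was taken with the RNeasy mini kit. Fixation, embedding and the extraction kit therefore changed together and cannot be told apart. The labels name a single divided pellet and nothing says that the 3 libraries of a group came from separate cultures, so p-values measure only the spread between these libraries, which may be technical. The series also holds normal urothelium, inputs of 50 pg and 2 ng, another low-input kit and poly(A) libraries, of which the Ovation libraries are used below where they show how the 250 pg comparison differs.

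Formaldehyde joins RNA to nearby proteins and leaves adducts on bases, and RNA recovered from paraffin blocks is usually short. The Ovation SoLo protocol treats total RNA with DNase, starts cDNA from random primers and removes ribosomal sequences after cDNA synthesis, so transcripts without a poly(A) tail are read as well. Many small structured RNAs have no such tail and mitochondrial RNAs have short ones, whereas most messenger RNAs have long tails.

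Total counts were 3470328, 3430326 and 4706030 in the FFPE libraries and 3399450, 3031655 and 3347235 in the FF libraries. The identity of the cells was checked against marker genes, as CPM of a library's own total (CPM are counts scaled to a fixed library total). Epithelial markers (Epcam, Cdh1, Krt7, Krt8, Krt18 and Krt19) summed to 3213 to 3285 in FFPE and 6354 to 7085 in FF libraries, and urothelial markers to 187 to 251 in FFPE and 276 to 287 in FF libraries. The urothelial sum came mostly from Upk1b (562 to 713 counts a library) and Krt20 (115 to 244). Krt5 had 6 to 38 counts a library, Upk1a 4 to 21, Upk2 3 to 13 and Upk3a 1 to 23. Fibroblast markers summed to 10.5 to 21 in FFPE and 9.57 to 12.6 in FF libraries, and leukocyte markers to 10.5 to 14.7 in FFPE and 11.4 to 16.5 in FF libraries. Endothelial markers summed to 0.292 to 5.19 in FFPE and 0.330 to 1.47 in FF libraries, and all 4 globin genes were at 0 in all 6 libraries. Smooth muscle markers summed to 8.93 to 16.6 in FFPE and 2.09 to 8.91 in FF libraries, with Des at 0 in all 6. Their part in the results was not tested.

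Fixation changed the level of 1892 of the 12379 genes that passed the filter on low counts, 1070 higher and 822 lower in FFPE, by the edgeR quasi-likelihood test at a Benjamini-Hochberg adjusted p under 0.05. The shares called were 15.3% in either direction, 8.64% higher and 6.64% lower, and lists of genes are read against these shares below. Changes of at least 2-fold were mostly increases: 599 genes higher and 102 lower, in all 5.66% of genes tested. The median log2 fold change of all genes tested was 0.00 under the TMM scaling used throughout, and every change below is relative to it. Scaling by total counts alone moved that median to -0.15 and the split to 792 higher and 1585 lower, while limma on the deposited log2 values gave 1212 higher and 486 lower. A fit over all 12 Ovation groups, which takes its estimate of spread from every input and both samples, called 765 genes, 529 higher and 236 lower. Levels of single genes are given as CPM after TMM scaling within this comparison, and values with ± are means and SDs over the 3 libraries of a group.

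FFPE libraries held more genes at equal depth and varied more among themselves. After every library was thinned to 3031655 counts, 13816, 13857 and 14048 genes had at least 5 counts in the FFPE libraries, against 13225, 13213 and 13217 in the FF libraries. The difference of means was 689 genes, the groups did not overlap, and the two-sided exact permutation test gave p = 0.1, the smallest that 3 against 3 libraries allow. Genes are not independent replicates, and across 14660 of them the Pearson correlation of log2(CPM + 1) was 0.921 to 0.932 among FFPE libraries and 0.959 to 0.962 among FF libraries, and 0.906 to 0.918 between an FFPE and an FF library. The coefficient of variation that edgeR fitted between repeat libraries, beyond counting error, was 23.2% in FFPE and 15.9% in FF.

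Many of the RNAs with the largest increases are short and structured, and 5 of them are printed here so that what was counted can be seen. The sequences are those of GENCODE M21 on GRCm38, given on the strand of the transcript, 5′ to 3′. mt-Ta and mt-Tn are neighbouring mitochondrial tRNA genes for alanine and asparagine (chrM:5018-5086, minus strand, and chrM:5089-5159, minus strand), and capitals mark the anticodon. Snord118 encodes the U8 small nucleolar RNA (chr11:69073427-69073561, plus strand) and Rnu3a a U3 small nucleolar RNA (chr10:40258467-40258680, plus strand), both needed for processing of the ribosomal RNA precursor, and capitals mark TGATGA (the C box) and the last CTGA (the D box), a motif that also occurs elsewhere in both. Rnu12 is the U12 RNA of the minor spliceosome (chr15:83149644-83149794, plus strand), with its Sm site AATTTTTG in capitals. All 5 are genes of a single exon.
mt-Ta: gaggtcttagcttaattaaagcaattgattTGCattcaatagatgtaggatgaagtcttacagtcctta
mt-Tn: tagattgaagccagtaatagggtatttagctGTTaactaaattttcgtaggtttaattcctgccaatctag
Snord118: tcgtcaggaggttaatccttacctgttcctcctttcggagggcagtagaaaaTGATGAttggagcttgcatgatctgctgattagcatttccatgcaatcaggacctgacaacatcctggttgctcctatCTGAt
Rnu3a: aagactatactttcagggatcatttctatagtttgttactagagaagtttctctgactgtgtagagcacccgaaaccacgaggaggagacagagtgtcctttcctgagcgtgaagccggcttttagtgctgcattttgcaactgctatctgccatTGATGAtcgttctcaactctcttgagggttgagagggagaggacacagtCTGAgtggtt
Rnu12: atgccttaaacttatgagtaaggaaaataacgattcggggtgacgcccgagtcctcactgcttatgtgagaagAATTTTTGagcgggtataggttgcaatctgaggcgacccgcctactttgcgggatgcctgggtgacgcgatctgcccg
Among 10670 annotated transcripts of 50 to 300 bases, searched on the transcript strand, 10.4% hold TGATGA, 61.1% hold CTGA, 6.45% hold TGATGA followed by CTGA, and 0.403% hold AATTTTTG. None of the capitalised motifs overlaps another. A match describes the letters and is not evidence of a working box.

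The make-up of the libraries shifted away from nuclear messenger RNA. Nuclear protein-coding genes took 72.4% ± 0.203 of the counts in FFPE and 85.3% ± 0.648 in FF libraries (SD, n = 3 each). Mitochondrially encoded protein genes took 8.32% ± 0.0436 in FFPE and 3.17% ± 0.122 in FF, mitochondrial rRNA genes 5.58% ± 0.272 in FFPE and 1.90% ± 0.211 in FF, and mitochondrial tRNA genes 0.566% ± 0.0156 in FFPE and 0.226% ± 0.00356 in FF. Small RNA genes took 3.73% ± 0.160 in FFPE and 1.62% ± 0.104 in FF, and long noncoding RNA genes 2.43% ± 0.0287 in FFPE and 1.60% ± 0.0116 in FF. The small RNA class holds small nuclear, small nucleolar, Cajal body, catalytic and miscellaneous small RNA genes, and genes annotated as rRNA outside the mitochondrial genome. In each of these classes the 3 FFPE libraries lay apart from the 3 FF libraries. Genes with sequence like that of the ribosomal RNA repeat differed less, at 4.97% ± 0.139 in FFPE and 4.25% ± 0.254 in FF, again without overlap. Pseudogenes overlapped, at 0.744% ± 0.0549 in FFPE and 0.744% ± 0.0938 in FF. The exact permutation test gave p = 0.1, the smallest possible, for 8 of the 9 classes compared (adjusted p = 0.113 over the 9) and p = 1.0 for pseudogenes. Since shares sum to a fixed total, a larger share of 1 class lowers the others.

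**Figure D1:**
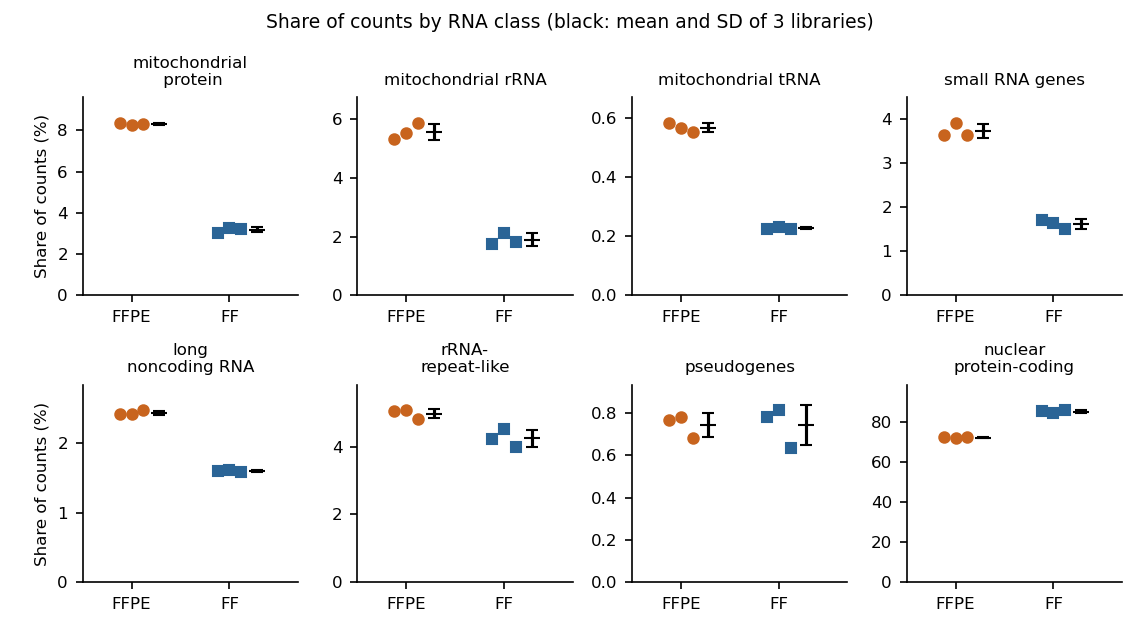
Share of a library's counts (percent, vertical axes from 0) in 8 classes of RNA, FFPE left and FF right; each point is 1 of 3 libraries and the black mark beside them is the mean with SD. FFPE libraries lie above FF libraries in every class shown except pseudogenes, which overlap, and nuclear protein-coding genes, where FFPE is lower (72.4% against 85.3%).

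Transcripts of the mitochondrial genome rose together. Of the 13 mitochondrially encoded protein genes, which supply core subunits of the respiratory chain, 12 rose and 0 fell, with a median log2 fold change of 1.69 where all genes tested had 0.00. mt-Nd5, a subunit of complex I, had 10452, 10486 and 10983 CPM in the FFPE libraries, against 2437, 2663 and 2775 CPM in the FF libraries (log2 fold change 2.02, SE 0.045, adjusted p = 1.06e-28). mt-Nd6, another subunit of complex I that is encoded on the opposite strand, had 4208, 4296 and 4346 CPM in the FFPE libraries, against 840.2, 864 and 856 CPM in the FF libraries (log2 fold change 2.33). The ends of mt-Nd5 and mt-Nd6 overlap, and the use of strand in counting is not given in the sources used here. mt-Co2, a subunit of cytochrome c oxidase, stood at 94.5 ± 14 CPM in FFPE, against 18.4 ± 3.21 CPM in FF libraries, and mt-Nd4l, which overlaps mt-Nd4, changed by 2.58. mt-Nd3 was the member not called, with 1608, 1649 and 1591 CPM in the FFPE libraries, against 1299, 1517 and 1499 CPM in the FF libraries (log2 fold change 0.17, adjusted p = 0.0735). Its libraries did not overlap, and it was called by limma on the deposited log2 values (adjusted p = 0.0121) and with at least 10 counts required in every library (adjusted p = 0.0440).

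Both mitochondrial rRNA genes rose. The large subunit RNA mt-Rnr2 had 39683, 41162 and 43639 CPM in the FFPE libraries, against 11306, 13772 and 11658 CPM in the FF libraries (log2 fold change 1.76, SE 0.043, adjusted p = 8.57e-28), and the small subunit RNA mt-Rnr1 changed by 1.61. The lowest FFPE library was above the highest FF library by a wide margin in both. Of 22 mitochondrial tRNA genes, 20 were tested, 19 rose and 0 fell (median 2.37). Those that led were mt-Ta and mt-Tn, whose sequences are printed above. mt-Ta had 344, 379.6 and 391 CPM in the FFPE libraries, against 10.6, 14.2 and 20.9 CPM in the FF libraries (log2 fold change 4.60, SE 0.17, adjusted p = 2.06e-22), and mt-Tn had 514, 598 and 585 CPM in the FFPE libraries, against 39.5, 36.1 and 43 CPM in the FF libraries (log2 fold change 3.84). The tRNA genes for histidine (mt-Th, 3.70) and serine (mt-Ts2, 3.64) followed. mt-Tf, the tRNA gene for phenylalanine, was not called, at 8.50 ± 1.67 CPM in FFPE, against 8.23 ± 1.81 CPM in FF libraries, and its groups overlapped. Of 78 nuclear genes of oxidative phosphorylation, 3 rose, 11 fell and 64 were not called (median -0.13). Among them Cycs, the electron carrier cytochrome c, stood at 60.9 ± 7.31 CPM in FFPE, against 113 ± 13.7 CPM in FF libraries (log2 fold change -0.89), and the complex III subunit gene Uqcrc1 changed by -0.75. In the fit over all 12 groups 5 of these nuclear genes fell and 0 rose, and the call of Cycs was lost (adjusted p = 0.310).

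**Figure D2:**
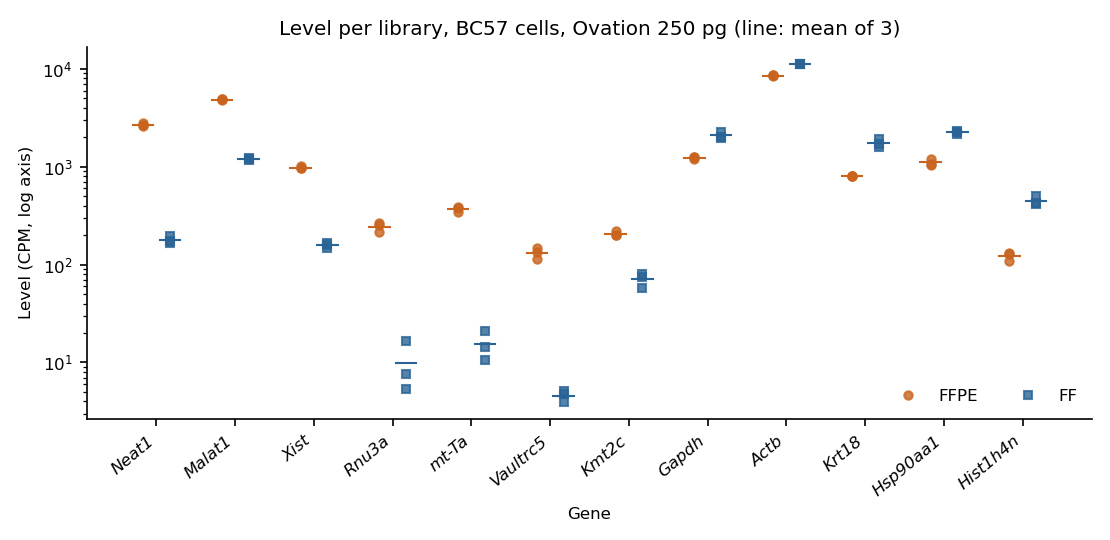
Level of 12 genes in each library (CPM, log axis), FFPE circles left of FF squares, with a line at the mean of 3. Neat1, Malat1, Xist, Rnu3a, mt-Ta, Vaultrc5 and Kmt2c lie higher in all 3 FFPE libraries and Gapdh, Actb, Krt18, Hsp90aa1 and Hist1h4n lower, without overlap in any of the 12. Rnu3a, for example, has 251, 217 and 265 CPM in the FFPE libraries, against 7.56, 16.4 and 5.38 CPM in the FF libraries.

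Small nuclear RNAs, the RNA components of the spliceosome, rose in 22 of the 30 genes tested and fell in 0 (median 2.37). Rnu12, the U12 RNA printed above, had 32.7, 43.1 and 41 CPM in the FFPE libraries, against 3.08, 2.85 and 0.566 CPM in the FF libraries (log2 fold change 4.16, SE 0.42, adjusted p = 1.38e-09). Rnu11, the U11 RNA that acts with U12 in the minor spliceosome, had 16.2, 14.6 and 13.1 CPM in the FFPE libraries, against 0, 0.316 and 1.98 CPM in the FF libraries (log2 fold change 4.18). Gm22513, annotated as a small nuclear RNA gene on chromosome 12 (54696782 to 54696945), had 258, 281 and 269.8 CPM in the FFPE libraries, against 8.96, 12.3 and 8.49 CPM in the FF libraries (log2 fold change 4.77), and Gm25313, on chromosome 9 (65196572 to 65196687), changed by 6.13. Every FFPE library lay above every FF library in these 4. Small nuclear RNA genes exist in many near-identical copies, so which copy a read belongs to is uncertain. With at least 10 counts required in every library, 12 of these genes were tested and 10 were called, all higher.

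Small nucleolar RNAs, which guide chemical modification and cleavage of other RNAs, rose in 111 of the 164 genes tested and fell in 0 (median 1.63). Of 1484 such genes in the count table only these 164 passed the filter, some through FFPE counts alone. The split by direction is therefore partly set by the filter. Rnu3a, on chromosome 10, stood at 244 ± 25 CPM in FFPE, against 9.79 ± 5.86 CPM in FF libraries (log2 fold change 4.66, SE 0.22, adjusted p = 9.82e-19). Snord118 had 63.3, 73.1 and 41.9 CPM in the FFPE libraries, against 3.36, 2.53 and 4.24 CPM in the FF libraries (log2 fold change 4.11, SE 0.33, adjusted p = 4.52e-12), so the lowest FFPE value was about an order of magnitude above the highest FF value. For 2 members annotated only by a predicted name the FF libraries held almost no counts. Gm24826 had 112 counts over the FFPE libraries and 0 over the FF libraries, which makes it at least 35.1-fold higher with the FF group set at a floor of 3 counts in all. Gm26493 had 113 counts in FFPE and 3 in FF (ratio of CPM 35.4, 95% counting interval 11.8 to 174). The interval and the floor cover counting error only. Gm24826 and Rnu3a each overlap another entry of the same name on the same strand. How reads were shared between such entries is not given in the sources used here. Of 11 small Cajal body RNAs, which guide modification of spliceosomal RNA, 9 rose and 0 fell (median 1.65), among them Scarna6 with 15.3, 28.2 and 13.1 CPM in the FFPE libraries, against 2.24, 4.74 and 2.83 CPM in the FF libraries (log2 fold change 2.52). With all 12 groups in 1 fit, 61 small nucleolar RNA genes were called, all higher.

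RNAs made by RNA polymerase III and other small RNAs rose in 10 of the 13 genes tested and fell in 0 (median 2.33). Vaultrc5, a vault RNA (chr18:36801866-36802008), had 113, 147 and 136 CPM in the FFPE libraries, against 5.04, 4.74 and 3.96 CPM in the FF libraries (log2 fold change 4.84, SE 0.24, adjusted p = 5.36e-18). The Y RNA gene Rny1, whose product binds the Ro60 protein, had 1221, 1424 and 1321 CPM in the FFPE libraries, against 138, 203 and 133 CPM in the FF libraries (log2 fold change 3.07), and Rny3 changed by 2.33. All 3 were lower in every FF library than in any FFPE library. Rn7s2, a signal recognition particle RNA, stood at 405 ± 37 CPM in FFPE, against 56.1 ± 18 CPM in FF libraries (log2 fold change 2.86), with the related copies Rn7s1 and Rn7s6 at 1.86 and 3.44. The catalytic RNAs of the RNase MRP and RNase P enzymes rose less. Rmrp had 5019, 5200.5 and 4519 CPM in the FFPE libraries, against 2429.7, 2271 and 1889.8 CPM in the FF libraries (log2 fold change 1.16), and Rpph1 changed by 1.13. Rn7sk, the RNA that holds the elongation factor P-TEFb inactive, was abundant in both groups and was not called, with 6920.0, 6936 and 6369 CPM in the FFPE libraries, against 6844, 5469.7 and 5958 CPM in the FF libraries (log2 fold change 0.15, adjusted p = 0.0514), and its groups overlapped. It was called higher by limma (adjusted p = 0.00925), with at least 10 counts required in every library (0.0238), with size factors of DESeq2 (0.0425), without FF replicate 1 (8.36e-05) and without FFPE replicate 3 (0.0410).

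The genes with sequence like that of the large ribosomal RNA repeat, which the depletion step targets, all rose (4 of 4, median 0.59). Gm42418 had 38005, 38220.5 and 36478 CPM in the FFPE libraries, against 30302, 33311 and 28154 CPM in the FF libraries (log2 fold change 0.30), and Gm26917 changed by 0.66. The 4 genes that rose span 0.30 to 4.07 on the log2 scale, the last being Gm26870. In the fit over all 12 groups the call of Gm42418 was lost (adjusted p = 0.171).

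Many small nucleolar RNAs are cut from introns of protein-coding and noncoding host genes, so that both come from 1 primary transcript. For 55 snoRNA genes that lie in an intron of a single tested host on the same strand (46 hosts), the snoRNA rose in 37 and fell in 0 (median 1.49). Of the 46 hosts, each counted once, 1 rose and 16 fell (median -0.17). In 15 pairs the snoRNA rose and the host fell, in 2 both rose, and the fold change of the snoRNA was above that of its host in 53. Snora21 had 21.7, 18.9 and 13.1 CPM in the FFPE libraries, against 3.36, 5.06 and 0.849 CPM in the FF libraries (log2 fold change 2.53). Its host Rpl23, a ribosomal protein gene, had 315, 329 and 361 CPM in the FFPE libraries, against 488, 459 and 507 CPM in the FF libraries (log2 fold change -0.53). Snord83b changed by 1.36 within Rpl3, another ribosomal protein gene, which changed by -0.74. In each of these 4 genes the FFPE and FF libraries did not overlap. Snord83b was not called in the fit over all 12 groups (adjusted p = 0.0872).

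Noncoding genes known mainly as hosts of snoRNAs did rise, in 7 of 12 tested and with 0 lower (median 0.90). Snhg15 had 271, 252 and 255 CPM in the FFPE libraries, against 52.9, 73.7 and 62.5 CPM in the FF libraries (log2 fold change 2.04, SE 0.14, adjusted p = 2.33e-14). Snhg3 changed by 1.99, although it overlaps Snora73a, Snora73b and Rcc1 on the same strand, and Snhg17, Snhg20 and Gas5 changed by 1.45, 1.45 and 0.93. How reads of a snoRNA that lies over an exon of its host were assigned is not given in the sources used here.

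Long noncoding RNAs that stay in the nucleus rose in 7 of the 10 tested and fell in 0 (median 1.99). Neat1 (chr19:5824708-5845478, minus strand), the scaffold of nuclear paraspeckles, had 2686, 2593 and 2824 CPM in the FFPE libraries, against 173, 166 and 195 CPM in the FF libraries (log2 fold change 3.92, SE 0.074, adjusted p = 1.38e-30). Malat1, its neighbour on chromosome 19, which localises to nuclear speckles, had 4906, 4781 and 4935 CPM in the FFPE libraries, against 1164, 1197 and 1223 CPM in the FF libraries (log2 fold change 2.03, SE 0.051). Both stood far apart between the groups, with a spread within each group that was small beside the difference. Xist, the RNA that coats the inactive X chromosome, had 964, 963 and 1009 CPM in the FFPE libraries, against 149.5, 159 and 165 CPM in the FF libraries (log2 fold change 2.63). Tsix, which is transcribed across Xist from the other strand, changed by 2.73, and reads of the overlap cannot be assigned without strand. Jpx, an activator of Xist, stood at 12.2 ± 0.201 CPM in FFPE, against 1.56 ± 0.696 CPM in FF libraries (log2 fold change 2.94), and its call was lost in the fit over all 12 groups (adjusted p = 0.0563). Long noncoding RNA genes as a whole showed this to a lesser degree: of 678 tested, 102 rose and 25 fell (median 0.20).

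**Figure D3:**
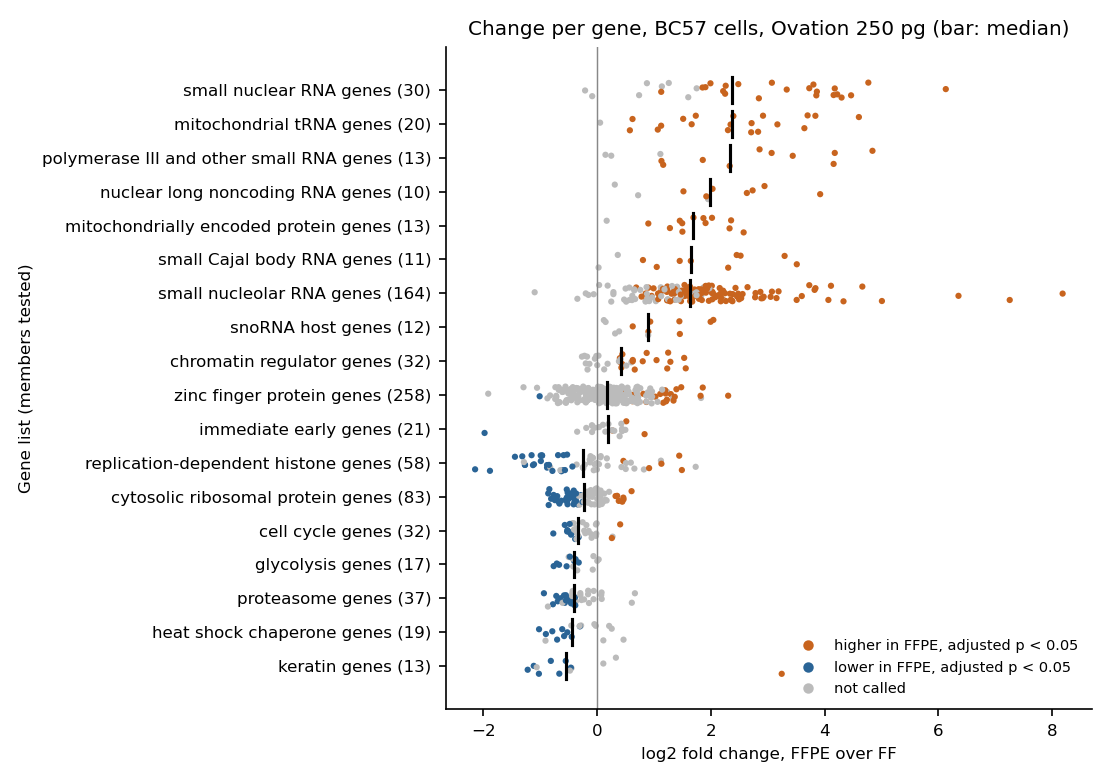
Log2 fold change (FFPE over FF) of each tested member of 18 gene lists, with the number of members in brackets; coloured points are called higher or lower at an adjusted p under 0.05, grey points are not called, and black bars are medians. Small, mitochondrial and nuclear noncoding RNA lists lie right of 0 with medians from 0.90 to 2.37, and keratin, heat shock, proteasome and glycolysis lists lie left of 0 with medians from -0.55 to -0.40; fitted values of small nucleolar RNA genes above 5 rest on FF libraries with at most 3 counts in all.

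Lrrtm2, Slc16a4 and Phxr4, outside these classes, also rose from low FF levels. Lrrtm2, which encodes a synaptic adhesion protein, had 49.5, 41.8 and 45 CPM in the FFPE libraries, against 0, 0.949 and 2.83 CPM in the FF libraries (log2 fold change 5.13, SE 0.47, adjusted p = 1.13e-10), and lies within Ctnna1 on the other strand. Slc16a4, of the monocarboxylate transporter family, had 27.2, 18.3 and 17.7 CPM in the FFPE libraries, against 1.96, 0 and 0 CPM in the FF libraries (log2 fold change 4.89, SE 0.69, adjusted p = 1.53e-06). Phxr4, a predicted gene within Maml2 on the same strand, had 18, 32.8 and 24.2 CPM in the FFPE libraries, against 0, 0.316 and 0.849 CPM in the FF libraries (log2 fold change 5.88, SE 0.63, adjusted p = 5.66e-09). All 3 were near 0 in FF libraries, with 13 counts of Lrrtm2, 7 of Slc16a4 and 4 of Phxr4 over the group. Krt87, a hair-type keratin, rose against the direction of the other keratins, with 20.8, 51.7 and 20.4 CPM in the FFPE libraries, against 2.52, 3.80 and 3.40 CPM in the FF libraries (log2 fold change 3.24, SE 0.44, adjusted p = 6.29e-07).

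Among nuclear protein-coding genes, 701 of 10867 rose and 758 fell, and the direction went with transcript length. In 5 equal bins of annotated transcript length, the shortest bin (median 1460 bases) had 65 genes higher (2.99%) and 218 lower (10.0%), with a median log2 fold change of -0.11. The longest bin (median 6871 bases) had 398 higher (18.3%) and 61 lower (2.81%), with a median of 0.21. The medians of the 3 bins between were -0.10, -0.08 and -0.01. The difference between the longest and the shortest bin was 0.32, and 0.29 to 0.37 when each FFPE library was set against the FF mean (SD 0.041). Across 10861 genes, not independent of each other, Spearman's rho of fold change with length was 0.231 and Pearson's r 0.184, given as a description. Over all genes tested with a length, small RNAs included, the difference was 0.17, with a rho of 0.115 and an r of -0.108, and the shortest bin had more genes higher (317) than lower (179).

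Length and level are related, so the bins were repeated within genes above and below the median level. Above it, the shortest bin had 50 genes higher and 234 lower, and the longest 288 higher and 38 lower (difference of medians 0.40, rho 0.364). Below it, the counts were 12 higher and 22 lower in the shortest bin, and 84 higher and 5 lower in the longest (difference 0.28). Level itself went the other way: the most highly expressed of 5 bins of nuclear protein-coding genes had 249 higher and 519 lower (rho -0.146). Intron length had a rho of 0.174 and GC content one of -0.063. These features share genes and cannot be separated by bins alone.

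**Figure D4:**
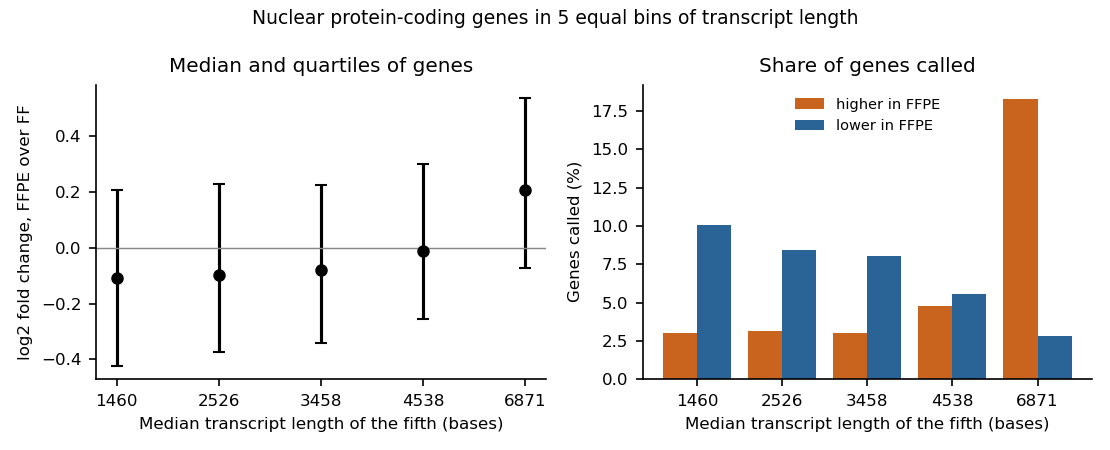
Nuclear protein-coding genes in 5 equal bins of transcript length, labelled by the bin's median length in bases; left, median log2 fold change (FFPE over FF) with the quartiles of genes as bars, right, percent of genes called higher (left bars) and lower (right bars) in FFPE. The median runs from -0.11 in the shortest to 0.21 in the longest bin, and the share called higher from 2.99% to 18.3%.

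Genes of chromatin regulation were among those that rose: 16 of 32 rose and 0 fell (median 0.42). A link to transcript length was not tested for this list. Kmt2c, a histone H3 lysine methyltransferase (chr5:25271798-25498783), had 202, 199.9 and 220.0 CPM in the FFPE libraries, against 73.9, 80.3 and 57.2 CPM in the FF libraries (log2 fold change 1.56, SE 0.14, adjusted p = 1.07e-10). Its relatives Kmt2a and Kmt2d changed by 1.29 and 1.25, and the Polycomb-linked gene Asxl2 by 1.53, with 87.2, 116 and 136 CPM in the FFPE libraries, against 22.1, 53.8 and 41.9 CPM in the FF libraries. In these 4 genes no FF library reached the level of an FFPE library. Under scaling by total counts 10 of the 32 rose and 3 fell (median 0.27), and the fit over all 12 groups called 7, all higher. Zinc finger protein genes, a large family of transcription factors, rose in 21 of 258 and fell in 1 (median 0.17). Their share of increases, 8.14%, is near the 8.64% of all genes tested, and their share of decreases, 0.388%, is below the 6.64%. Decreases were called less often at low level: in 0.485% of the lowest and 22.6% of the highest of 5 level bins of all genes tested. The part of level in the share of this family was not tested. Zfp329 stood at 15.5 ± 1.17 CPM in FFPE, against 3.10 ± 0.574 CPM in FF libraries (log2 fold change 2.30) and Zfp169 at 18.4 ± 4.49 CPM in FFPE, against 5.24 ± 1.79 CPM in FF libraries (log2 fold change 1.82). Under scaling by total counts 17 zinc finger genes rose and 3 fell (median 0.02), and without FF replicate 2, 12 rose and 0 fell.

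Replication-dependent histone genes, whose messenger RNAs are short and end in a stem-loop in place of a poly(A) tail, fell in 24 of 58 and rose in 5 (median -0.25). They supplied 6 of the 12 genes with the largest decreases. Hist1h2ad had 24.5, 25.1 and 17.7 CPM in the FFPE libraries, against 119.6, 87.6 and 88.3 CPM in the FF libraries (log2 fold change -2.14, SE 0.21, adjusted p = 9.41e-10), and Hist1h4n had 129, 130.1 and 108 CPM in the FFPE libraries, against 506, 430.5 and 415 CPM in the FF libraries (log2 fold change -1.88, SE 0.11, adjusted p = 5.49e-16). Hist1h2ab, Hist1h3b, Hist1h4b and Hist1h2ac changed by -1.44, -1.32, -1.27 and -1.27. In all 6 the highest FFPE library was below the lowest FF library. Hist1h2ap went the other way, with 19.9, 18.9 and 15.2 CPM in the FFPE libraries, against 6.16, 7.91 and 5.09 CPM in the FF libraries (log2 fold change 1.49), and lost its call without FF replicate 1 or 3 (adjusted p = 0.0513 and 0.0655). Histone paralogs are alike enough for reads to be split between them. With all 12 groups in 1 fit, 10 histone genes were called, all lower, and under scaling by total counts 28 fell and 3 rose.

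The other 6 of these 12 were low-level genes. H2afj, a histone variant gene, had 9.48, 12.7 and 9.28 CPM in the FFPE libraries, against 31.1, 20.9 and 34.2 CPM in the FF libraries (log2 fold change -1.46, SE 0.34, adjusted p = 0.00198). Bcat2, a mitochondrial aminotransferase of branched-chain amino acids, changed by -1.48, the complex I assembly factor gene Ndufaf5 by -1.45, and lactotransferrin (Ltf) by -1.31. Mns1, a gene of cilia and sperm flagella, changed by -1.27, and the cell-surface proteoglycan gene Gpc1 by -1.24. Their calls rested on few libraries. That of Bcat2 was lost without FF replicate 2 (adjusted p = 0.0539), that of Ndufaf5 without FF replicate 1 (0.0620) and that of Ltf without FF replicate 3 (0.0980). Mns1 lost its call without FF replicate 1 or 3 or FFPE replicate 2 (adjusted p = 0.0794, 0.0754 and 0.0705), and Gpc1 without the same libraries (adjusted p = 0.134, 0.0608 and 0.0562). The fit over all 12 groups called none of these 5 (adjusted p from 0.160 to 0.566). Their changes were smaller in the same test at 2 ng: Bcat2 -0.54, Ndufaf5 -0.31, Ltf -0.53, Mns1 -0.66 and Gpc1 -0.34. There Bcat2, Ltf and Mns1 were called, and Ndufaf5 and Gpc1 were not (adjusted p = 0.307 and 0.181). At 50 pg they changed by 0.26, -0.14, -1.56, -0.87 and -0.41 in the same order, and none was called.

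Most of the keratin and other epithelial genes that were called fell in FFPE. Of 13 keratin genes tested, 7 fell and 1 rose (median -0.55). Krt18 and Krt8, the partner keratins of simple epithelia, fell together: Krt18 had 813, 802 and 796 CPM in the FFPE libraries, against 1911, 1704 and 1604 CPM in the FF libraries (log2 fold change -1.11, SE 0.068, adjusted p = 1.86e-15), and Krt8 changed by -1.02. Krt7, which urothelium shares, had 1196, 1251 and 1198 CPM in the FFPE libraries, against 2312, 2065 and 2029.5 CPM in the FF libraries (log2 fold change -0.81). Without FFPE replicate 3, 4 keratin genes fell and 1 rose. Of 13 genes of urothelial differentiation, 5 fell and 0 rose (median -0.52), and these include Krt7, Krt8 and Krt18. Of 20 epithelial junction genes, 2 fell and 0 rose (median -0.19), and this share of decreases, 10.0%, is near the 6.64% of all genes tested. Epcam had 337, 357 and 369 CPM in the FFPE libraries, against 483, 534 and 509 CPM in the FF libraries (log2 fold change -0.52). The other was E-cadherin (Cdh1, -0.42). Neither Epcam nor Cdh1 was called in the fit over all 12 groups (adjusted p = 0.0681 and 0.0568). Both groups came from a single divided pellet of this cell line, and the cause of these decreases was not tested.

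Abundant messenger RNAs of protein folding, energy metabolism and protein turnover fell by less than 2-fold in most cases. Of 19 heat shock chaperone genes, 9 fell and 0 rose (median -0.45). Hsp90aa1, the inducible cytosolic HSP90, had 1055, 1072 and 1194 CPM in the FFPE libraries, against 2255, 2165 and 2322 CPM in the FF libraries (log2 fold change -1.02, SE 0.062, adjusted p = 1.54e-15), and its relatives Hsp90b1 and Hsp90ab1 changed by -0.90 and -0.79. Of 17 glycolysis genes, 9 fell and 0 rose (median -0.40). Gapdh, often used as a reference gene, had 1249, 1188 and 1259.5 CPM in the FFPE libraries, against 2278, 2022 and 1979 CPM in the FF libraries (log2 fold change -0.76, SE 0.062, adjusted p = 5.94e-12), and Pgk1 and Ldha changed by -0.71 and -0.67. In each of these genes all FFPE libraries were below all FF libraries. Of 37 proteasome genes, 16 fell and 0 rose (median -0.40), among them Psmd3, of the regulatory particle, at 110.5 ± 14.7 CPM in FFPE, against 189 ± 8.74 CPM in FF libraries (log2 fold change -0.78). Proteasome calls were 9 without FF replicate 1, 10 without FF replicate 2 and 9 by limma, all lower. The fit over all 12 groups called 4 glycolysis and 2 proteasome genes, all lower.

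Cytosolic ribosomal protein genes went down more often than up, with 36 of 83 lower, 7 higher and a median of -0.22. Rpl4 had 666, 709 and 772 CPM in the FFPE libraries, against 1252, 1237 and 1270.0 CPM in the FF libraries (log2 fold change -0.81, SE 0.071, adjusted p = 3.3e-11), and Rpl15, Rpl19 and Rps4x changed by -0.86, -0.85 and -0.84. Of 76 genes of the mitochondrial ribosome, 6 fell and 1 rose (median -0.20). Their share of decreases, 7.89%, is near the 6.64% of all genes tested. Of 17 housekeeping genes, 8 fell and 1 rose (median -0.27). Eef1a1, a translation elongation factor, had 3235, 3194 and 3235 CPM in the FFPE libraries, against 5496, 5436 and 5512 CPM in the FF libraries (log2 fold change -0.77), and Actb had 8419, 8711 and 8603 CPM in the FFPE libraries, against 11254, 11282 and 11123 CPM in the FF libraries (log2 fold change -0.39, SE 0.034). Polr2a, the largest subunit of RNA polymerase II, rose, at 304 ± 15.5 CPM in FFPE, against 177 ± 2.61 CPM in FF libraries (log2 fold change 0.78). Reference genes thus differed among themselves in direction under every scaling tried for these 3 genes. Ribosomal protein genes have many processed pseudogenes, which can take part of their reads. Fitted with all 12 groups, 23 cytosolic ribosomal protein genes were called, all lower, and 0 of the mitochondrial ribosome. Without FF replicate 1, 2 genes of the mitochondrial ribosome were called, both lower.

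Stress and signalling lists had few calls at 250 pg, which does not show that they changed little. Shares in brackets are read against 8.64% higher and 6.64% lower among all genes tested. At 2 ng, 7 of 21 immediate early genes rose and 1 fell, 4 of 12 p53 target genes rose and 1 fell, and 1 of 18 hypoxia genes rose and 1 fell. There 5 of 17 NRF2 genes rose and 7 fell, 2 of 19 integrated stress response genes rose and 5 fell, and 0 of 21 cholesterol synthesis genes rose and 5 fell. At 250 pg, 3 of 21 immediate early genes rose (14.3%) and 1 fell (4.76%) (median 0.20). Among them was Egr1, at 309 ± 24.4 CPM in FFPE, against 216 ± 5.51 CPM in FF libraries (log2 fold change 0.51). Scaling by total counts gave 2 higher and 2 lower (median 0.04), and the fit over all 12 groups called none of the 21. Without FF replicate 1 or 3, 1 was called, and without FFPE replicate 2 or 3, 2 were called. Of 18 hypoxia genes edgeR called 0 (median 0.09), with 1 at an unadjusted p under 0.05 and 0 called by DESeq2 or limma, and 0 rose and 2 fell under scaling by total counts, with a median of -0.07. Of 12 p53 target genes, 1 fell (8.33%, median -0.10), and 0 were called without FF replicate 1 or 3 or FFPE replicate 1. Of 17 NRF2 antioxidant genes 2 fell (11.8%) and 1 rose (5.88%) (median -0.13), and without FF replicate 1, 1 fell and 0 rose. Genes of the integrated stress response had 3 lower (15.8%) and 1 higher (5.26%) of 19 (median -0.15), with Asns, the asparagine synthetase gene, at -0.55. Of 21 cholesterol synthesis genes 3 fell (14.3%, median -0.26), led by Fdps at -0.88. The calls of Egr1, Asns and Fdps were lost in the fit over all 12 groups (adjusted p = 0.277, 0.0665 and 0.128).

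Cell cycle and splicing genes were mixed or slightly lower. Of 32 cell cycle genes, 9 fell and 2 rose (median -0.33). The replication clamp gene Pcna had 246, 225 and 228 CPM in the FFPE libraries, against 310.2, 358 and 336 CPM in the FF libraries (log2 fold change -0.52), and the helicase subunit gene Mcm6 and the ribonucleotide reductase gene Rrm1 changed by -0.57 and -0.53. Cell cycle calls were 5 without FF replicate 1 or 3 and 6 without FF replicate 2 or FFPE replicate 1, and the fit over all 12 groups called 0. Of 32 splicing factor genes, 7 fell and 2 rose (median -0.18). Hnrnpu, a nuclear matrix RNA-binding protein, changed by -0.59 and Srsf11 by 0.63. Collagen, laminin and integrin genes split evenly, 4 higher and 4 lower of 31 (median -0.01, and -0.17 with 2 higher and 4 lower under scaling by total counts), with Col7a1 at 1.20 and Lamb3 at -0.69. Of 13 genes taken because earlier results of these libraries showed them high in BC57 cells against urothelium, 1 rose and 1 fell (median 0.11, and -0.04 under scaling by total counts). These shares, 7.69% in each direction, are near the 8.64% higher and 6.64% lower of all genes tested. Hmga2, an AT-hook protein of embryonic cells and many tumours, had 624, 540.4 and 635 CPM in the FFPE libraries, against 453, 407 and 433 CPM in the FF libraries (log2 fold change 0.48), and mesothelin (Msln) had 303, 337 and 304 CPM in the FFPE libraries, against 437, 377 and 397 CPM in the FF libraries (log2 fold change -0.36). Msln lost its call without FF replicate 1 (adjusted p = 0.0586) and by limma (adjusted p = 0.0751). Fitted with all 12 groups, none was called of Pcna, Mcm6, Rrm1, Col7a1, Lamb3, Hmga2 and Msln (adjusted p from 0.0942 to 0.315).

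Markers of other cell types were few. Of 4 fibroblast, 1 endothelial and 3 leukocyte marker genes that passed the filter, edgeR, DESeq2 and limma each called 0, and 0 fibroblast, 0 endothelial and 0 leukocyte genes had an unadjusted p under 0.05. Of 4 smooth muscle genes 1 rose, the actin gene Acta2, at 5.50, 5.89 and 7.47 CPM in the FFPE libraries, against 0.560, 0.949 and 0.849 CPM in the FF libraries (log2 fold change 2.95, adjusted p = 0.0147), a call that was lost without FF replicate 1, 2 or 3 or FFPE replicate 3 (adjusted p = 0.103, 0.0718, 0.0761 and 0.0658). Alas2, the erythroid enzyme of haem synthesis, was the erythroid gene tested, was called higher and had 115 counts in FFPE and 3 in FF libraries (ratio of CPM 36.1, 95% counting interval 12 to 177), while the globin genes were at 0. Alas2 overlaps Apex2 on the other strand.

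The same comparison of BC57 cells was made at 50 pg and 2 ng, and the number of calls rose with input. Between FFPE and FF, 482 of 12160 genes (3.96%, of which 2.56% higher and 1.41% lower) were called at 50 pg, 1892 of 12379 (15.3%) at 250 pg and 3916 of 12127 (32.3%) at 2 ng. The fitted variation between repeat libraries was 39.1% in FFPE and 24.0% in FF libraries at 50 pg, 23.2% in FFPE and 15.9% in FF at 250 pg, and 7.88% in FFPE and 6.27% in FF at 2 ng. For some genes the fold changes lay close together: Neat1 changed by 4.06 at 50 pg, 3.92 at 250 pg and 3.91 at 2 ng, mt-Nd5 by 2.04, 2.02 and 1.94, and Krt18 by -1.01, -1.11 and -0.92. Snord118 lay further apart, at 3.24 at 50 pg, 4.11 at 250 pg and 3.51 at 2 ng. H2afj, by contrast, changed by -0.36 at 50 pg, -1.46 at 250 pg and 0.23 at 2 ng.

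The change itself was then tested for a difference between inputs. Between 250 pg and 2 ng it differed in 1 of 13275 genes (0.00753%), Gm23935, which resembles the ribosomal RNA repeat. Scaled within these 12 libraries, Gm23935 had 2948 ± 76.5 CPM in FFPE libraries, against 2045 ± 179.9 CPM in FF libraries, at 250 pg, and 3886 ± 346 CPM in FFPE libraries, against 1707 ± 192 CPM in FF libraries, at 2 ng (SD, n = 3 each) (difference of log2 fold changes -0.66, SE 0.096, adjusted p = 0.00187). Between 250 pg and 50 pg edgeR called 0 of 13531 genes, with 799 at an unadjusted p under 0.05 and 0 by DESeq2. Without FF replicate 1 at 50 pg, 5 were called. H2afj was not called in either test. A p that misses the threshold does not show that the changes are alike, and the higher variation at 50 pg limits what can be seen there.

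In urothelium at the same input, fixation changed 448 of 13557 genes (3.30%). The fitted variation between repeat libraries was 29.4% in FFPE and 36.8% in FF urothelium, against 23.2% in FFPE and 15.9% in FF BC57 libraries. The number of calls depends on this spread as well as on the size of the changes. Of the genes called, 279 were called in both samples and 273 of them in the same direction, which is 14.4% of the calls in BC57 cells and 60.9% of those in urothelium. Small RNA lists had medians above 0 in both. Small nuclear RNA genes had a median of 2.37 in BC57 cells and 4.36 in urothelium, and small nucleolar RNA genes 1.63 in BC57 cells and 2.15 in urothelium. The mitochondrial lists lay further apart: protein genes had a median of 1.69 in BC57 cells and 0.41 in urothelium, and tRNA genes 2.37 in BC57 cells and 0.31 in urothelium. Nuclear long noncoding RNA genes had 1.99 in BC57 cells and 0.38 in urothelium.

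**Figure D5:**
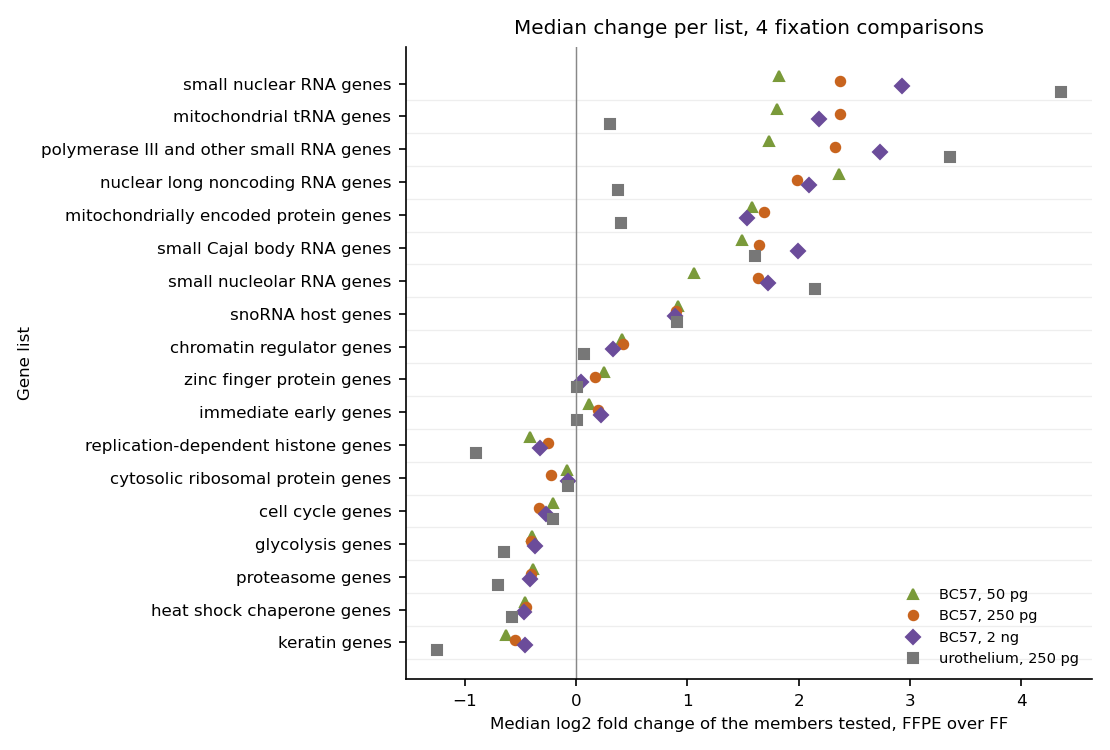
Median log2 fold change (FFPE over FF) of the tested members of 18 gene lists in BC57 cells at 50 pg, 250 pg and 2 ng, and in urothelium at 250 pg. The BC57 inputs lie furthest apart in the small RNA lists. The BC57 medians at 250 pg lie farther from 0 than those of urothelium for mitochondrial and nuclear long noncoding RNA lists (1.69 in BC57 cells and 0.41 in urothelium for mitochondrially encoded protein genes) and nearer 0 for small nuclear RNA genes (2.37 in BC57 cells and 4.36 in urothelium).

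A test of the difference between samples called 54 of 15360 genes (0.352%), 37 (0.241%) with a higher change in BC57 cells and 17 (0.111%) with a lower one. Of 36 mitochondrial genes tested, 20 were called, all with a higher change in BC57 cells: 7 of 13 protein genes, 11 of 21 tRNA genes and both rRNA genes. mt-Ta had 362 ± 26.4 CPM in FFPE BC57 libraries, against 15.5 ± 5.41 CPM in FF BC57 libraries, and 84.6 ± 13.7 CPM in FFPE urothelium, against 33.7 ± 5.51 CPM in FF urothelium (SD, n = 3 each), scaled within these 12 libraries (difference of log2 fold changes 3.22, SE 0.32, adjusted p = 1.4e-05). mt-Tn differed by 2.94 (adjusted p = 3.07e-07). In the other direction, Rnu5g, a U5 spliceosomal RNA, had 34.6 ± 3.36 CPM in FFPE BC57 libraries, against 3.53 ± 1.72 CPM in FF BC57 libraries, and 92.2 ± 16.1 CPM in FFPE urothelium, against 0.415 ± 0.142 CPM in FF urothelium (difference -4.38, adjusted p = 0.00299). Without FF urothelium replicate 3 the test called 125 genes, and DESeq2 called 164. Urothelium is a tissue of several cell types and BC57 a cultured line, so the samples differ in more than their response to fixation.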

How the data were processed

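Total RNA of BC57 cells was sequenced as strand-specific paired reads of Ovation SoLo libraries. Reads were processed with STAR, SAMtools and featureCounts on mm10, per the submitters' processing notes, without versions. Which annotation was counted, and whether counting used strand, is not given in the sources used here. Whole-number counts per Ensembl gene were deposited by the authors for 39179 genes, with log2 values that were recomputed from those counts to within 5.15e-14. Of these genes, 37693 matched GENCODE M21 and gave symbols, classes and GRCm38 coordinates, and 1486 did not, with 0.867 to 1.10 percent of the counts. No column was left unassigned in the tables read, and the other kits were not used here.

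Samples were grouped by their titles. Counts were filtered with filterByExpr, TMM-scaled and fitted with the quasi-likelihood test of edgeR 4.0.16 (R 4.3.3), on the 6 libraries for fixation and on 12 for each difference between comparisons, with Benjamini-Hochberg adjustment over all genes tested and a threshold of 0.05. Gene levels are TMM-scaled CPM, while marker sums and class shares use a library's own total. For detection, counts were thinned without replacement (seed 117). Class shares and detection were compared by exact permutation. Floors are 3 counts over the group, and 95% intervals cover counting error only. The tests were run on simulated data beforehand. Some genes that meet the naming rule below are not reported here.

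The comparison, gene lists and tests were chosen with earlier results of these data known. Named genes were the 12 higher and 12 lower with the largest changes (at least 20 CPM, libraries of both groups apart, predicted gene names left out), up to 4 members per list with the largest changes at 10 CPM or more, the 5 largest differences in each direction per test between comparisons, and Gapdh and Actb. Other named genes (such as Malat1, Rn7sk, Rmrp, Rny1, Rny3, mt-Nd3, mt-Tf, mt-Rnr1, Gas5, Acta2, the snoRNA and host pairs and the genes with few FF counts) were chosen after their values were seen. Alternatives were DESeq2 1.42.0, its size factors, total counts as scaling, limma 3.58.1 on the deposited log2 values, other filters, thinning, a fit over all 12 Ovation groups, a replicate block and leaving out each library. Same-numbered FFPE and FF libraries deviated together with correlations of 0.013, 0.012 and 0.026, so their numbers do not pair them. Tables and plots were made with Python 3.11.15, pandas 2.3.3, numpy 2.4.6, scipy 1.17.1 and matplotlib 3.10.9.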

Additional observations from a re-analysis of the deposited data

Results flagged for a closer look

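The difference in fixation change between 250 pg and 2 ng BC57 libraries was itself past the threshold in 1 gene. For Gm23935 it was -0.66 on the log2 scale (edgeR quasi-likelihood test, SE 0.096, adjusted p = 0.00187), and the call was kept without each of the 12 libraries in turn (adjusted p from 0.000127 to 0.0294). Gm23935 is annotated as a miRNA gene of 57 bases and resembles the ribosomal RNA repeat.

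Between BC57 cells and urothelium at 250 pg the difference in fixation change was past the threshold in 54 genes, and the 5 largest in each direction under the naming rule are given here with adjusted p-values from the same test. The change was higher in BC57 cells for the tRNA genes mt-Ta (3.22), mt-Tn (2.94) and mt-Ts2 (2.89). mt-Ta and mt-Tn kept their calls without each library in turn (adjusted p at most 0.000148 and 5.71e-06), while mt-Ts2 lost its call in 10 of 12 cases (adjusted p 0.00204 to 0.159).

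Hist1h2ai, a histone gene, had a difference of 7.44. Its mean was 56.9 CPM in FFPE BC57 libraries, against 127 CPM in FF BC57 libraries, and 0 CPM in FFPE urothelium, against 14.4 CPM in FF urothelium. Its call was lost without FFPE urothelium replicate 3 (adjusted p = 0.0555). Pycard, the adaptor of the inflammasome, had a difference of 7.42, with 2.90 CPM in FFPE BC57 libraries, against 0 CPM in FF ones, and 17.2 CPM in FFPE urothelium, against 36.9 CPM in FF urothelium, and lost its call in 9 of 12 cases (adjusted p 0.0267 to 0.136).

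The change was lower in BC57 cells for Rnu5g (-4.38), whose call was kept in all 12 cases (adjusted p at most 0.0153). The replication factor gene Cdc45 had a difference of -6.94, with 24.9 CPM in FFPE BC57 libraries, against 30.6 CPM in FF ones, and 3.65 CPM in FFPE urothelium, against 0 CPM in FF urothelium. It lost its call in 9 of 12 cases (adjusted p 0.0218 to 0.0844). Mcm8, a helicase gene of DNA repair, had -3.74, with 35.2 CPM in FFPE BC57 libraries, against 48.6 CPM in FF ones, and 4.35 CPM in FFPE urothelium, against 0.411 CPM in FF urothelium, and lost its call in 11 of 12 cases (adjusted p 0.0316 to 0.156). Fitted values of genes with a group at 0 depend on the prior count and are no bound.

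Prelp, a proteoglycan gene of connective tissue, had -4.73, with 0.0746 CPM in FFPE BC57 libraries, against 1.46 CPM in FF ones, and 463 CPM in FFPE urothelium, against 209 CPM in FF urothelium. Its call was lost without FF replicate 1 or 3 or FFPE replicate 1 or 2 of the BC57 libraries (adjusted p = 0.103, 0.0600, 0.0813 and 0.0738). Tpx2, a spindle assembly gene, had -2.26, with 197 CPM in FFPE BC57 libraries, against 239.5 CPM in FF ones, and 7.06 CPM in FFPE urothelium, against 1.78 CPM in FF urothelium. Its call was lost without FF BC57 replicate 3, FF urothelium replicate 2 or FFPE urothelium replicate 3 (adjusted p = 0.0504, 0.0530 and 0.0635).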

How the results depend on the processing

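The 1892 genes called for fixation became 1698 to 2377 under DESeq2, its size factors, total counts, limma, thinning and other filters, and 765 in the fit over all 12 groups. Leaving out 1 library gave 1385 to 1801. Of the 1892 calls, 35.7% were kept in the fit over all 12 groups and 67.5% to 80.5% when 1 library was left out. The other settings kept 80.9% (limma) to 98.9% (size factors of DESeq2). All calls in common kept their direction, which is likely in advance when the same counts are fitted again. Numbers do not pair the libraries, and with a replicate block 2014 were called (1101 higher, 913 lower), among them mt-Nd3 (adjusted p = 0.0377) and Rn7sk (0.00390). The difference from 2 ng was called in 2 genes by DESeq2, 9 with no filter, 2 with the replicate block and 1 to 3 when a library was left out. The difference from 50 pg was called in 17 with no filter, 0 with the block and 0 to 5 when a library was left out. The difference from urothelium was called in 164 by DESeq2, 216 with no filter, 49 with the block and 37 to 125 when a library was left out, the last without FF urothelium replicate 3. FFPE exceeded FF by 902 genes detected at 1 count or more and by 475.7 at 10 or more. As shares of counts outside mitochondrial and rRNA-repeat-like genes, FFPE minus FF was 1.25 points for long noncoding RNA, -4.48 for nuclear protein-coding, 0.294 for other, 0.1004 for pseudogenes and 2.84 for small RNA genes. The longest minus the shortest bin in median log2 fold change was 0.25 with at least 10 counts in every library. Chosen after seeing the data, it was 0.32 in nuclear protein-coding genes, 0.28 in their lower and 0.40 in their upper part by level. For GC content it was -0.078 in nuclear protein-coding genes. For intron length it was 0.18 with at least 10 counts and 0.25 in nuclear protein-coding genes, and for level -0.21 and -0.24. Causes were not tested. Genes under about 10 counts a library are limited by depth.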

Other observations

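The counts below are read against 8.64% higher and 6.64% lower among all genes tested. Of 168 lincRNA genes tested, 47 rose in FFPE and 4 fell (median log2 fold change 0.64), and of 7 sense intronic transcripts 5 rose and 0 fell (median 3.42). Antisense genes had 30 higher and 14 lower of 342 (median 0.03), a share of increases near that of all genes tested. Of 69 miRNA genes, 4 rose and 8 fell (median -0.09). The 45 of them that lie over an exon of a longer gene on the same strand had 0 higher and 7 lower (median -0.28), and there the reads of the miRNA gene and of its host cannot be told apart. Unprocessed pseudogenes rose in 9 of 14 and fell in 1 (median 1.12). Processed pseudogenes had 26 higher and 15 lower of 261 (median 0.19), near the shares of all genes tested. Genes that lie in an intron of another gene on the same strand rose in 73 of 222 cases and fell in 4 (median 0.60), against 775 higher and 764 lower of 11136 genes that lie outside other genes (median -0.01). The first group holds 62 small nucleolar RNA genes, which supplied 43 of the 73 increases. The 80 protein-coding genes in it had 3 higher and 2 lower (median -0.03), and the 30 processed pseudogenes had 0 higher and 0 lower by the edgeR test (median 0.25). The part of RNA from introns in these values was not tested.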
